A study of Mus musculus with 2 samples.

Results

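Netrin-1 (Ntn1) and 6 of its receptors, Dcc, Neo1, Unc5a, Unc5b, Unc5c and Unc5d, were followed across the cell classes of 2 mouse brain tissues. The genes were taken by symbol, and all 7 were found among the 32285 genes of each library. The data came from Slide-tags, in which nuclei of a frozen section take up DNA barcodes that carry position and are then profiled by droplet-based single-nucleus RNA sequencing. One library was from a coronal section, 20 µm thick, of the hippocampus of male C57BL/6J mice at 56 days of age. The other was from a sagittal section of the brain of a C57BL/6J embryo at embryonic day 14 (E14), bought as a whole frozen embryo. The sources used here name no transgene and no experimental treatment. For collection, adult mice were anaesthetised with isoflurane and perfused with a HEPES buffer, and the mother of the embryo was perfused with PBS. The positions of the nuclei were not used here.

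Netrin-1 is a secreted guidance cue that steers growing axons and migrating cells. Dcc is the receptor best known for attraction, and Neo1 (neogenin) is its close relative, which also binds repulsive guidance molecules. The Unc5 receptors mediate repulsion from netrin, alone or together with Dcc in the same cell, which is why the presence of both in one nucleus was examined. In the adult brain the same receptors are known from synapses and from myelinating cells.

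The hippocampal library held 1609 nuclei with 15346746 unique molecular identifiers (UMIs, counts of captured RNA molecules) and a median of 6607 per nucleus. The E14 library held 9036 nuclei with 58923882 UMIs and a median of 4204. A nucleus was given a class from the UMIs of marker lists that hold none of the 7 genes, which placed 1036 hippocampal and 2602 E14 nuclei, 64.4% and 28.8%. Classes with at least 20 nuclei were used, 10 in the hippocampus and 18 in the embryo. The hippocampal section also held nuclei with thalamic markers, so it was not hippocampus alone. In 2 embryonic groups the leading genes went against the names of their lists (dopaminergic neurons and floor plate), and they are called by leading genes, Lmx1b and Lmx1a nuclei and Rspo2 and Lmx1a nuclei. Only 1 barcode occurred in both libraries. Levels are given as CPM, the UMIs of a gene per 1000000 UMIs of the nuclei named, with exact 95% Poisson intervals. With 1 library per tissue there is no replicate and no test, and all intervals cover counting error only. Age, region, animal and library cannot be told apart between the tissues.

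All 7 genes are protein-coding. Their spans in GRCm38 differ widely, from 56.6 kb for Unc5a (chromosome 13, 54949411 to 55006018) and 69.0 kb for Unc5b (chromosome 10, 60762593 to 60831581) to 573 kb for Unc5d (chromosome 8, 28646717 to 29219636) and 1097 kb for Dcc (chromosome 18, 71253634 to 72351069). Between these lie Neo1 with 162 kb (chromosome 9, 58874687 to 59036441), Ntn1 with 191 kb (chromosome 11, 68209364 to 68400823) and Unc5c with 370 kb (chromosome 3, 141465216 to 141834924). Intronic reads were counted, and nuclear RNA is rich in introns, so levels of different genes were set side by side per kb of gene span. Exceptions below are the ratio of Dcc to Unc5d UMIs, the share of Dcc in receptor UMIs and the shares of nuclei with Dcc or an Unc5 gene. These take no account of span, and a longer gene is more readily detected. On the scale per kb Unc5c had the highest level in the adult library, 1.64 CPM per kb, above Unc5a with 0.940, Neo1 with 0.868 and Dcc with 0.646. In the embryo Dcc led with 3.07 CPM per kb, followed by Neo1 with 1.53, Unc5c with 1.47 and Unc5d with 1.44. Ntn1 was lowest of the 7 in the adult, at 0.0439 CPM per kb, whereas in the embryo Unc5b was lowest at 0.206 and Ntn1 stood at 0.288.

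Ntn1, the ligand, was highest in the adult hippocampus in oligodendrocyte precursor-like nuclei. Its level was 171 CPM (95% interval 123 to 231) there, against 24.5 CPM (13.0 to 41.8) in inhibitory-like nuclei, the next class, and the ratio was 6.99 (3.68 to 14.2). With clusters as classes precursor-like nuclei had 220 CPM, and the next class was endothelial-like nuclei with 81.8 CPM in place of 17.5 CPM. These 33 precursor-like nuclei held 42 of the 129 Ntn1 UMIs of the library, 32.6%. An Ntn1 UMI was found in 54.5% of them, and in 30.3% (15.6 to 48.7) once each nucleus was thinned to 1000 UMIs to make depths equal. Mature oligodendrocyte-like nuclei, of the same lineage, had 0 UMIs of Ntn1 in 233 nuclei, and so did the 38 CA3-like nuclei. For counts of 0 a floor of 3 UMIs was set, which is 3.74 CPM in the oligodendrocyte-like class, where the exact 95% interval reaches 4.60 CPM.

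In the embryo the ligand was highest in radial glia-like nuclei, the stem cells that line the ventricles, with 206 CPM (184 to 229). The Rspo2 and Lmx1a nuclei, which also had Shh among their 10 leading genes, followed with 155 CPM (117 to 202), and the 2 intervals overlapped. Forebrain GABAergic-like nuclei had 82.7 CPM (71.2 to 95.5). Across 3 classes the level was 206 CPM in radial glia-like nuclei, which were not separated by brain region, 62.4 CPM in intermediate progenitor-like (33.1 CPM with a wider margin between marker scores) and 19.2 CPM in cortical excitatory-like nuclei. The first was 10.7 times (7.90 to 14.8) the last. The lowest level was 3.57 CPM, from 1 UMI, in GABAergic nuclei without Dlx genes, whose leading genes were Gata3, Tal1 and Slc6a5.

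**Figure D1:**
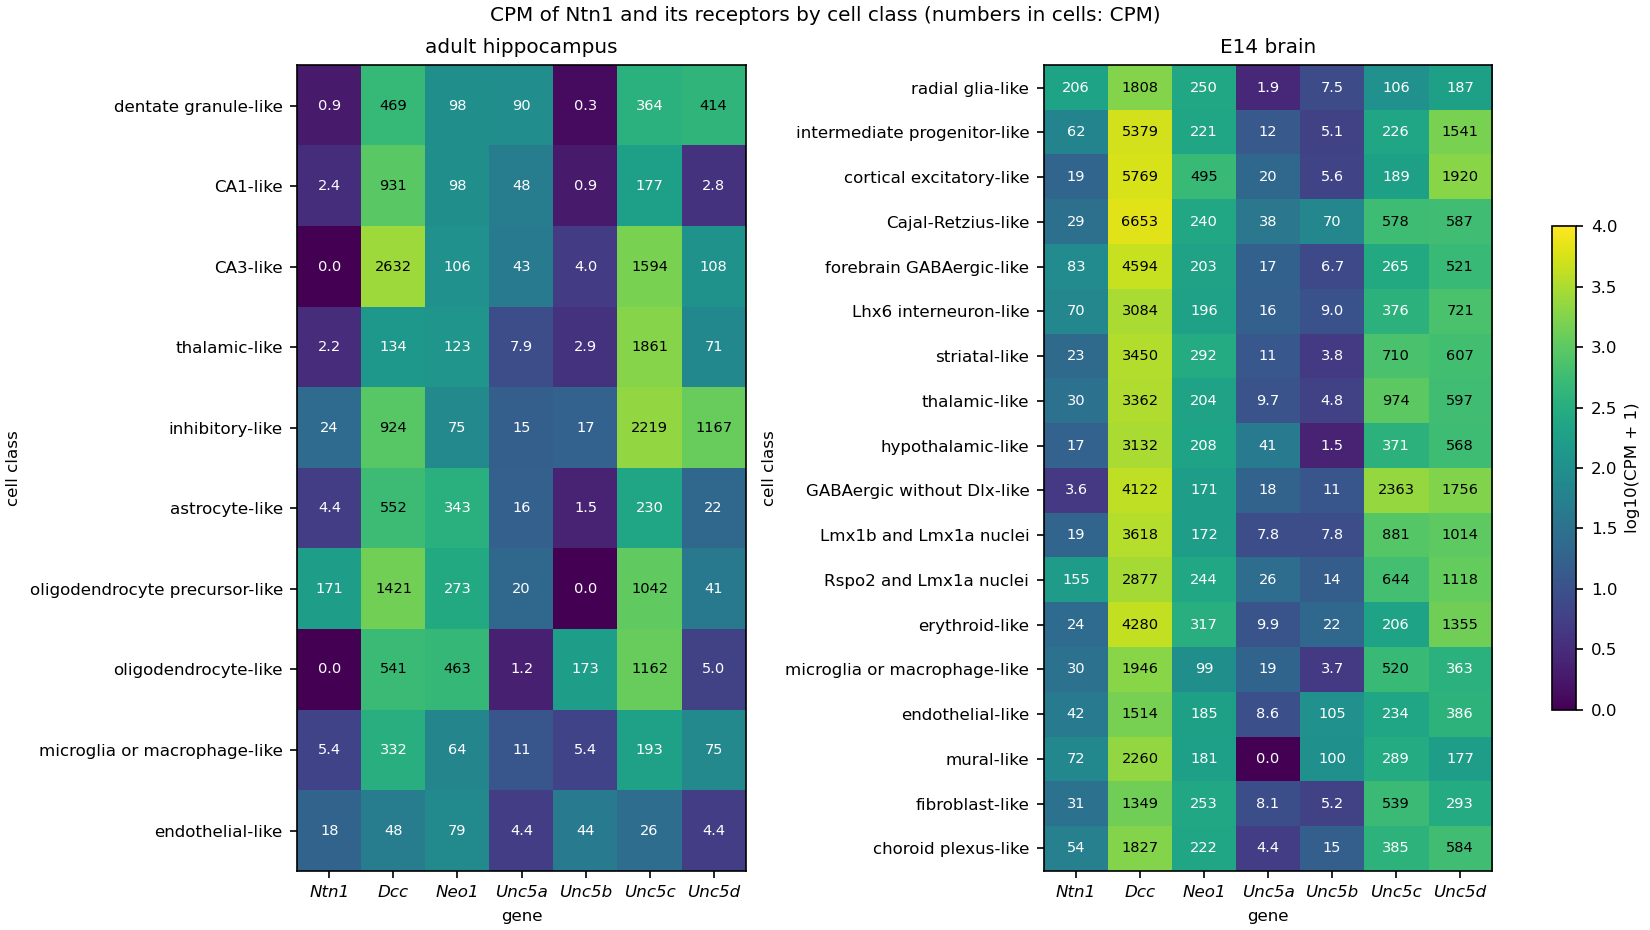
CPM of the 7 genes (columns) in each cell class (rows) of the adult hippocampus, left, and the E14 brain, right; colour is log10(CPM + 1) and the number in each cell is the CPM. Ntn1 stood at 171 CPM in adult oligodendrocyte precursor-like nuclei and 206 CPM in embryonic radial glia-like nuclei, while Dcc was above 1000 CPM in every embryonic class.

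Dcc differed 54.5-fold (30.4 to 109) between the highest and the lowest adult class. The lowest class rested on 11 Dcc UMIs in 2 of 42 nuclei, which the counting interval does not take into account. CA3-like nuclei, pyramidal neurons that receive the mossy fibres, had 2632 CPM (2517 to 2751). Oligodendrocyte precursor-like nuclei had 1421 CPM (1276 to 1578), and the ratio of the 2 was 1.85 (1.65 to 2.08). CA1-like and inhibitory-like nuclei did not differ beyond their intervals, at 931 and 924 CPM. Dentate granule-like nuclei stood lower, at 469 CPM (446 to 493), among astrocyte-like (552 CPM) and oligodendrocyte-like (541 CPM) nuclei. The 2 lowest classes were thalamic-like nuclei with 134 CPM (116 to 155) and endothelial-like nuclei with 48.3 CPM (24.1 to 86.4), which became 89.5 CPM with the wider margin in the first and 111 CPM with clusters in the second. With clusters as classes microglia or macrophage-like nuclei were lowest, with 84.9 CPM. The 3 pyramidal and granule classes of the hippocampus therefore ran in the order CA3, CA1, dentate, with no overlap of intervals. After thinning to 1000 UMIs a Dcc UMI was found in 73.7% of CA3-like, 72.7% of precursor-like, 47.4% of CA1-like, 13.1% of thalamic-like and 2.56% of endothelial-like nuclei. Endothelial-like nuclei are the class taken as background here, with a median of 3308 UMIs against 17489 in CA3-like nuclei before thinning.

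In the embryo Dcc had 198661 UMIs, and 78.9% of nuclei had at least 1, or 67.8% after thinning to 1000 UMIs. Cajal-Retzius-like nuclei, the Reln-expressing neurons of the cortical surface, were highest with 6653 CPM (6516 to 6792). Cortical excitatory-like nuclei had 5769 CPM (5675 to 5864) and intermediate progenitor-like nuclei 5379 CPM (5234 to 5526), so both were above radial glia-like nuclei with 1808 CPM. Forebrain GABAergic-like nuclei had 4594 CPM and thalamic-like nuclei 3362 CPM. No class was free of it: the lowest levels were 1349 CPM (1300 to 1400) in fibroblast-like and 1514 CPM (1461 to 1567) in endothelial-like nuclei, a high floor under every embryonic value. After thinning, 27.3% of fibroblast-like and 41.4% of endothelial-like nuclei had a Dcc UMI, against 88.9% of cortical excitatory-like and 85.6% of Cajal-Retzius-like nuclei. The level of radial glia-like nuclei was 1.34 times (1.27 to 1.41) that of fibroblast-like nuclei. It became 3009 CPM when classes were taken from clusters, and the thalamic-like level became 1585 CPM when a wider margin between marker scores was asked for. Erythroid-like nuclei, with 4280 CPM, were not read because their median depth was 827 UMIs and the 10% of nuclei with the most Dcc held 91.6% of its UMIs.

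**Figure D2:**
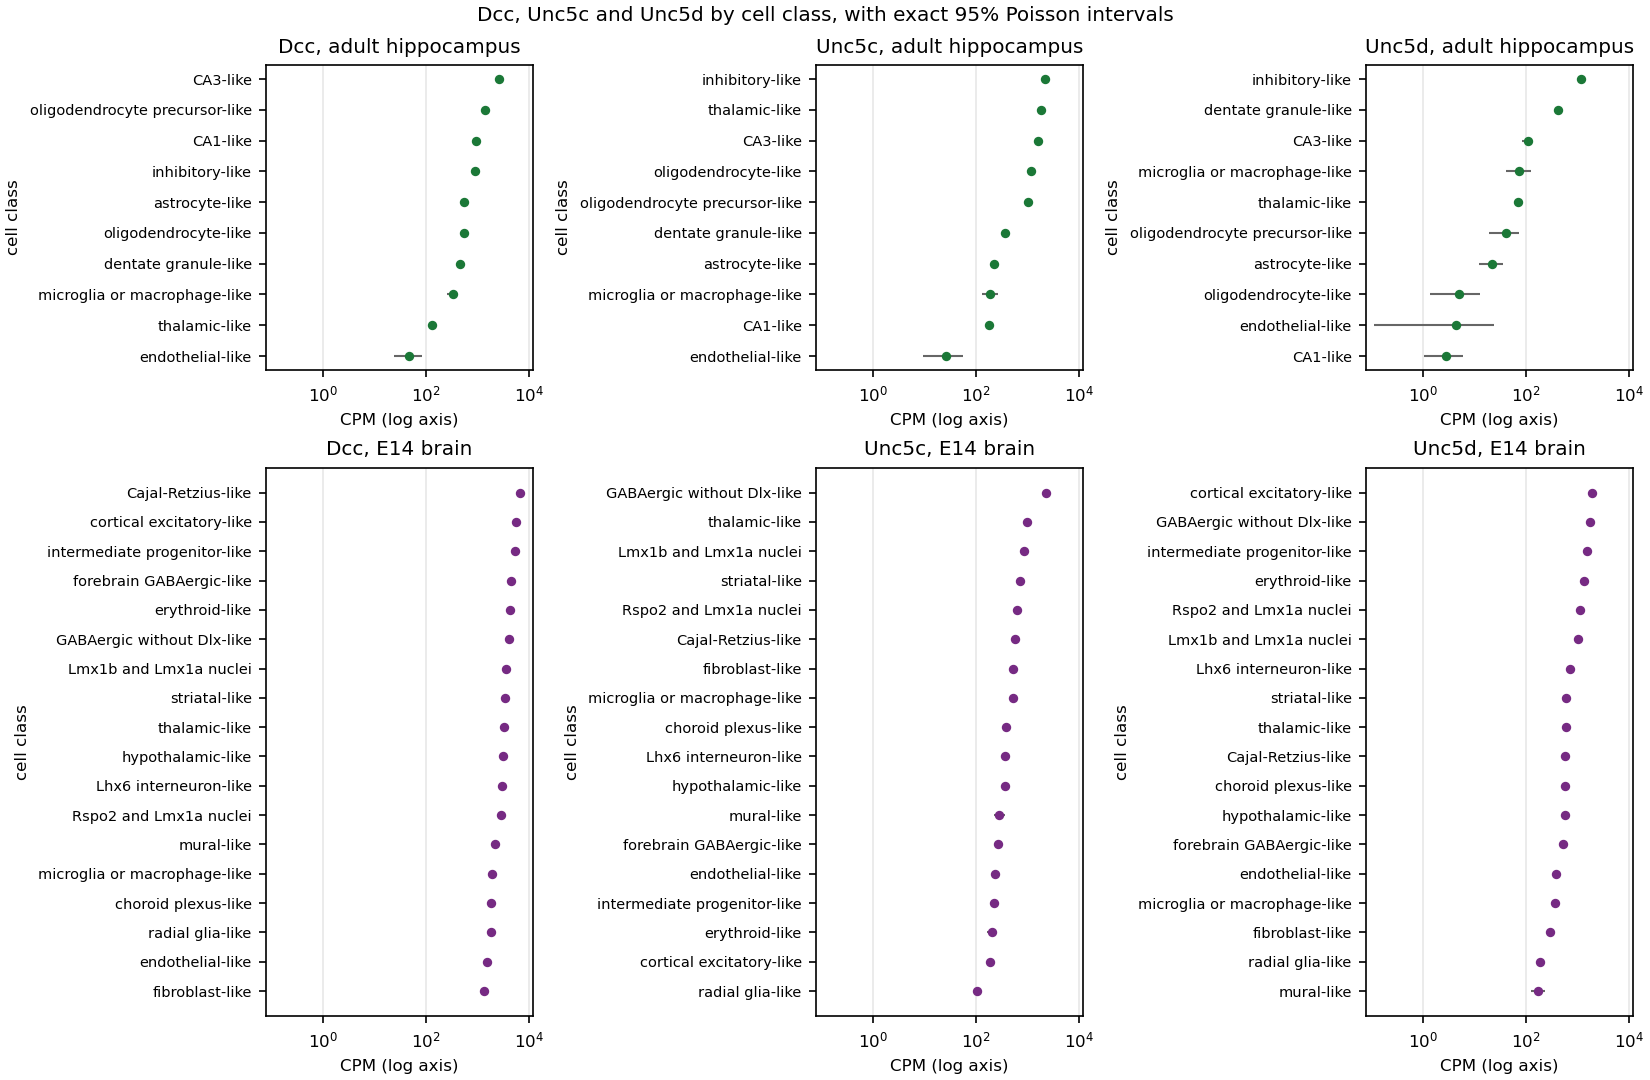
CPM (horizontal log axis) of Dcc, Unc5c and Unc5d in each class of the adult hippocampus (top) and E14 brain (bottom), ordered by level; points are values and bars exact 95% Poisson intervals. Dcc ran from 48.3 to 2632 CPM in the adult and from 1349 to 6653 CPM in the embryo.

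Neo1 showed a different order. In the adult it was highest in 3 glial classes, with 463 CPM (417 to 512) in oligodendrocyte-like, 343 CPM (301 to 390) in astrocyte-like and 273 CPM (211 to 346) in oligodendrocyte precursor-like nuclei. The 5 neuronal classes lay between 75.3 CPM in inhibitory-like and 123 CPM in thalamic-like nuclei, below the intervals of these 3 classes, and microglia or macrophage-like nuclei were lowest with 64.3 CPM (33.2 to 112). In the embryo cortical excitatory-like nuclei led with 495 CPM (468 to 523), followed by erythroid-like nuclei, not read for the reason above, and striatal-like nuclei with 292 CPM (231 to 365). The other classes but the lowest lay between 171 and 253 CPM, and microglia or macrophage-like nuclei were lowest with 98.7 CPM.

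Unc5a, a neuronal Unc5 receptor, was found in the excitatory neurons of the adult hippocampus. Dentate granule-like nuclei had 90.4 CPM (80.4 to 101), 1.88 times (1.498 to 2.38) the level of CA1-like nuclei with 48.0 CPM. CA3-like nuclei had 42.8 CPM (29.3 to 60.4), which overlapped with CA1-like nuclei, and thalamic-like nuclei had 7.94 CPM. Oligodendrocyte-like nuclei held 1 Unc5a UMI in 233 nuclei. In the embryo the highest levels were 41.3 CPM (27.2 to 60.0) in hypothalamic-like and 37.7 CPM (28.1 to 49.6) in Cajal-Retzius-like nuclei, with overlapping intervals, and radial glia-like nuclei had 1.87 CPM from 3 UMIs.

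Unc5b, known from blood vessels, was in the adult library mostly a gene of oligodendrocytes. Oligodendrocyte-like nuclei had 173 CPM (146 to 205) and held 139 of the 197 Unc5b UMIs, 70.6%. Endothelial-like nuclei followed with 43.9 CPM (21.0 to 80.7), and the ratio of the 2 was 3.95 (2.09 to 8.42). Precursor-like nuclei had 0 UMIs of Unc5b in 33 nuclei, which by the same floor allows up to 12.2 CPM and by the exact interval 15.0 CPM. Ntn1 and Unc5b therefore stood in opposite stages of the oligodendrocyte lineage, the ligand in precursors and Unc5b in mature cells. In the embryo the vessel classes led, with 105 CPM (91.8 to 120) in endothelial-like and 100 CPM (64.9 to 148) in mural-like nuclei. Their order was not settled, and without marked doublets it was 109 CPM in endothelial-like and 159 CPM (98.7 to 244) in mural-like nuclei. Cajal-Retzius-like nuclei had 69.6 CPM (56.2 to 85.1), and the other classes were at or below 15.2 CPM, apart from erythroid-like nuclei with 21.8 CPM.

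Unc5c was the most widely found Unc5 gene of the adult section. Inhibitory-like nuclei had 2219 CPM (2094 to 2350), thalamic-like 1861 CPM (1790 to 1935) and CA3-like 1594 CPM (1505 to 1687), in that order and without overlap. Oligodendrocyte-like nuclei with 1162 CPM and their precursors with 1042 CPM overlapped. CA1-like nuclei had 177 CPM (160 to 196), so that the level in CA3-like nuclei was 9.001 times (8.01 to 10.1) that of CA1-like nuclei for Unc5c and 2.83 times (2.65 to 3.01) for Dcc. Thalamic-like nuclei combined a high level of Unc5c with almost the lowest Dcc of the section. In the embryo the GABAergic nuclei without Dlx genes had 2363 CPM (2186 to 2550), 2.43 times (2.22 to 2.65) the level of thalamic-like nuclei with 974 CPM. Cortical excitatory-like nuclei had 189 CPM (106 CPM with the wider margin). Radial glia-like nuclei, the lowest class, had 106 CPM, which became 46.3 CPM with the wider margin and 185 CPM with clusters. Non-neuronal classes stood above cortical excitatory-like and radial glia-like nuclei in the main setting. Their levels were 539 CPM in fibroblast-like, 520 CPM in microglia or macrophage-like, 385 CPM in choroid plexus-like and 234 CPM in endothelial-like nuclei.

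Unc5d, which marks migrating cortical neurons in development, was concentrated in 2 adult classes. Inhibitory-like nuclei had 1167 CPM (1077 to 1263) and dentate granule-like nuclei 414 CPM (392 to 436), a ratio of 2.82 (2.56 to 3.11). CA3-like nuclei had 108 CPM, and CA1-like nuclei had 2.83 CPM from 6 UMIs in 119 nuclei of 18280 UMIs in the median, or 8.49 CPM with clusters as classes. In the embryo it was highest in cortical excitatory-like nuclei with 1920 CPM (1866 to 1975), with GABAergic nuclei without Dlx genes at 1756 CPM (1604 to 1918) and intermediate progenitor-like nuclei at 1541 CPM (1465 to 1621). Radial glia-like nuclei had 187 CPM (166 to 209), and the ratio of intermediate progenitor-like to radial glia-like nuclei was 8.24 (7.28 to 9.36), with radial glia-like nuclei at 398 CPM when classes were taken from clusters.

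The question of whether one nucleus holds Dcc together with an Unc5 gene depends on depth, since deeper nuclei show more of any gene. Nuclei were therefore thinned to 2000 UMIs. In the adult, 27 of 36 CA3-like nuclei (57.8% to 87.9%) had a UMI of Dcc and of at least 1 Unc5 gene, and so did 68.8% (50.0 to 83.9) of 32 oligodendrocyte precursor-like nuclei. The share was 40.5% in oligodendrocyte-like, 39.2% in dentate granule-like and 23.9% in CA1-like nuclei, and 0 of 35 endothelial-like nuclei. Before thinning, the summed level of 48 markers of the adult neuronal lists was 8590 CPM in precursor-like and 6274 CPM in oligodendrocyte-like nuclei. It was 3909 CPM in endothelial-like nuclei and 6591 CPM over all neuronal classes. The part of neuronal RNA in the glial shares was not tested. CA1-like nuclei held Dcc without an Unc5 gene in 40.4% of cases. Thalamic-like and inhibitory-like nuclei showed the reverse, with an Unc5 gene but no Dcc UMI in 65.3% and 58.8%, and no thalamic-like nucleus of 75 had Dcc alone. In the embryo the share with both reached 93.5% (78.6 to 99.2) of 31 GABAergic nuclei without Dlx genes. These nuclei had a median of 5 UMIs of their own list, against 18 of the Lhx6 interneuron list, and no cluster took their name. The share with both was 64.3% (58.2 to 70.0) in cortical excitatory-like, 63.5% in thalamic-like and 61.8% in Cajal-Retzius-like nuclei. It was 20.3% (14.9 to 26.7) in radial glia-like nuclei, where Dcc without an Unc5 gene was commoner, at 42.7%. Non-neuronal embryonic classes also had both, in 52.3% of choroid plexus-like, 32.3% of microglia or macrophage-like, 26.5% of endothelial-like and 25.6% of fibroblast-like nuclei. No embryonic class gave a share of 0, unlike endothelial-like nuclei of the adult.

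**Figure D3:**
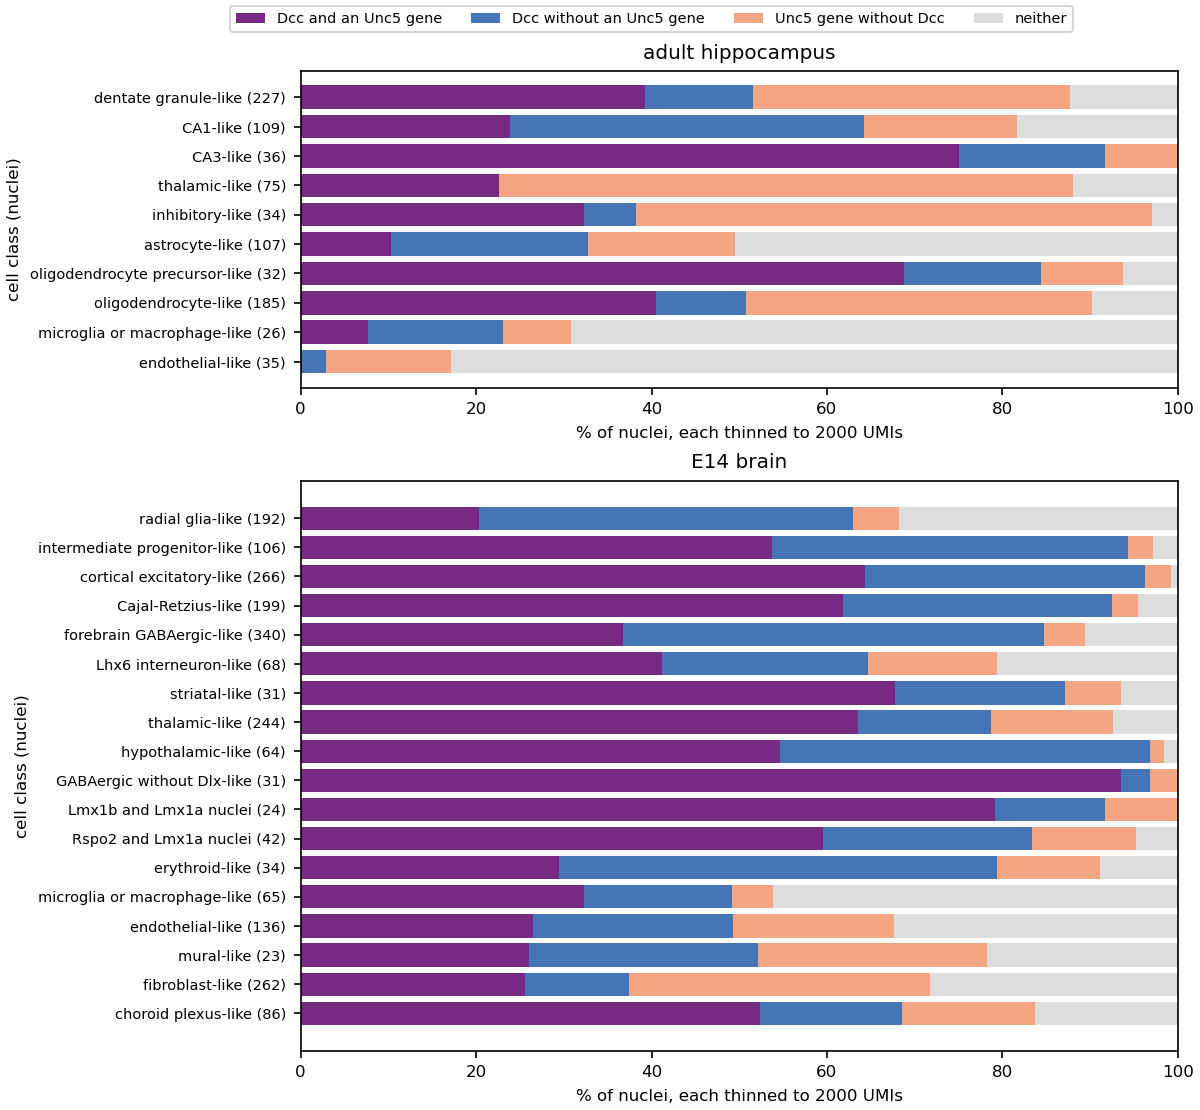
Share of nuclei (%, horizontal axis) of each class that held a UMI of Dcc and of an Unc5 gene, of Dcc only, of an Unc5 gene only or of neither, after thinning to 2000 UMIs; the number of nuclei is in brackets. Dcc and an Unc5 gene were found together in 27 of 36 adult CA3-like nuclei and 93.5% of 31 embryonic GABAergic nuclei without Dlx genes. They were also found together in 52.3% of embryonic choroid plexus-like nuclei.

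Unc5 genes were then compared between nuclei of a class with and without a Dcc UMI. In adult dentate granule-like nuclei thinned to 2000 UMIs, Unc5d was found in 45.3% of 117 nuclei with a Dcc UMI and 50.0% of 110 without, and Unc5c in 43.6% and 46.4%. In oligodendrocyte-like nuclei Unc5c was found in 71.3% of those with Dcc and 67.0% of those without, and Unc5b in 26.6% and 27.5%. CA1-like nuclei had Unc5c in 32.9% with Dcc and 41.0% without. In each of these the exact binomial intervals of the 2 shares overlapped. In the embryo Unc5d was found in 23.1% of radial glia-like nuclei with Dcc and 8.45% without, 29.2% and 13.5% of forebrain GABAergic-like and 34.9% and 21.2% of thalamic-like nuclei. Lhx6 interneuron-like nuclei had Unc5c in 27.3% and 8.33%. All 4 of these shares were higher with Dcc, and in each of the 4 the intervals overlapped. These 4 pairs are examples, and their shared direction does not stand for the other classes and Unc5 genes of the embryo. Unc5d was found in 59.0% of cortical excitatory-like nuclei with Dcc, and only 10 such nuclei lacked a Dcc UMI. Unc5d was found in 50.0% of intermediate progenitor-like nuclei both with and without Dcc, the latter only 6 nuclei, whereas thinned to 1000 UMIs it was found in 48.5% (38.2 to 58.8) of 97 with Dcc and 15.0% (3.21 to 37.9) of 20 without. Without thinning, nuclei with Dcc were deeper, with medians of 11576 against 6552 UMIs in the dentate granule-like class, and Unc5a was found in 67.0% and 43.2% of them, a gap that shrank to 20.5% against 18.2% after thinning.

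Dcc was also found in embryonic non-neuronal classes, and 4 of them were compared in the same way. Microglia or macrophage-like nuclei with a Dcc UMI had Unc5c in 50.0% (31.9 to 68.1), Unc5d in 37.5% (21.1 to 56.3) and Neo1 in 34.4% (18.6 to 53.2) of 32 nuclei after thinning to 2000 UMIs. Those without Dcc had them in 6.06%, 3.03% and 3.03% of 33 nuclei. In this main setting the intervals with and without Dcc did not overlap for any of these 3 genes. Choroid plexus-like nuclei had Unc5d in 55.9% (42.4 to 68.8) with Dcc and 7.41% (0.910 to 24.3) without, whereas Unc5c, at 47.5% and 40.7%, and Neo1, at 45.8% and 44.4%, were found about as often in both. Fibroblast-like nuclei had Unc5d in 24.5% and 8.54%, and Unc5c in 56.1% and 50.0%. In endothelial-like nuclei Unc5d was found in 32.8% and 14.5%, with overlapping intervals, and Unc5b in 17.9% and 20.3%. Thinned to 1000 UMIs, the Unc5d shares were 24.0% and 1.85% in microglia or macrophage-like and 41.1% and 14.3% in choroid plexus-like nuclei, and the intervals of each pair then overlapped. With the wider margin between marker scores, and 2000 UMIs, all 3 pairs overlapped in microglia or macrophage-like nuclei. Unc5c, Unc5d and Neo1 were found in 36.8%, 26.3% and 21.1% of 19 nuclei with Dcc, and 3.33%, 0% and 3.33% of 30 without. The Unc5d intervals then overlapped in fibroblast-like nuclei too, at 18.3% and 6.34%, but not in choroid plexus-like nuclei, at 53.3% and 8.33%.

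**Figure D4:**
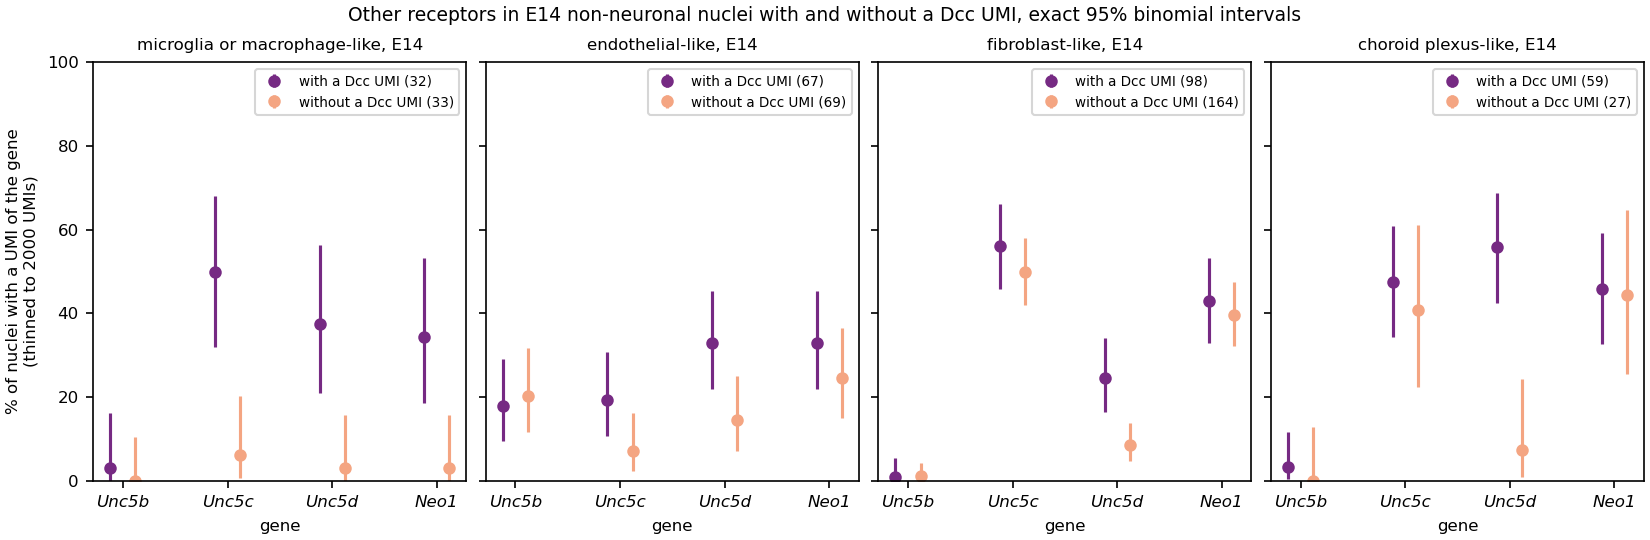
Share of E14 nuclei (%, vertical axis) with a UMI of Unc5b, Unc5c, Unc5d or Neo1 among nuclei with (purple) and without (orange) a Dcc UMI in 4 non-neuronal classes, after thinning to 2000 UMIs; bars are exact 95% binomial intervals and numbers of nuclei are in brackets. In microglia or macrophage-like nuclei Unc5d was found in 37.5% with Dcc and 3.03% without, while Unc5b in endothelial-like nuclei stood at 17.9% and 20.3%.

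Depth and doublet calls moved with Dcc in these same classes. Before thinning, nuclei with a Dcc UMI had medians of 7963 against 2708 UMIs in the microglia or macrophage-like class and 12319 against 3788 in the endothelial-like class. A doublet caller was set to mark the number expected at this loading, 653 of all 9036 E14 nuclei. It marked 28.4% of fibroblast-like nuclei with Dcc and 2.20% of those without, and 15.8% and 2.44% of microglia or macrophage-like nuclei. The shares were 15.5% and 1.82% of endothelial-like and 14.3% and 0% of choroid plexus-like nuclei. The summed level of 64 markers of the embryonic neuronal lists was 5363 CPM in microglia or macrophage-like nuclei with Dcc, with 51 of 64 markers found, and 2903 CPM with 23 found in those without. It was 5618 against 4735 CPM in choroid plexus-like, 5895 against 5533 CPM in endothelial-like and 6810 against 7412 CPM in fibroblast-like nuclei, lower with Dcc in the last, and over all neuronal classes it was 8823 CPM. Without the marked doublets Unc5d was found in 37.0% with Dcc and 3.13% without in microglia or macrophage-like nuclei, 54.0% and 3.85% in choroid plexus-like, 25.4% and 5.88% in fibroblast-like and 31.5% and 13.4% in endothelial-like nuclei, where the intervals overlapped. The ratio of Dcc to Unc5d UMIs in these 4 classes lay between 3.13 and 5.36. In other classes that are not neurons it was 3.16 in erythroid-like, 9.67 in radial glia-like and 12.8 in mural-like nuclei. The whole E14 library held 198661 UMIs of Dcc and 48743 of Unc5d. The part of free RNA in the Dcc of non-neuronal nuclei was not tested.

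Set side by side, 3 of the 7 genes were at least 2-fold lower in the adult hippocampus than in the E14 brain and 1 was at least 2-fold higher. Among 20842 genes tested between the libraries, 24.1% were lower and 17.2% higher by that much, 41.2% in either direction. Ntn1 was 8.41 CPM in the adult and 55.2 CPM in the embryo, a ratio of 0.152 (0.127 to 0.182). Dcc was 709 and 3371 CPM, a ratio of 0.210 (0.206 to 0.214), and Unc5d 202 and 827 CPM, a ratio of 0.245 (0.236 to 0.254). Unc5a went the other way, with 53.2 and 19.9 CPM and a ratio of 2.67 (2.44 to 2.92). Neo1 stood at 140 and 248 CPM, a ratio of 0.567 (0.541 to 0.593). Unc5c, at 606 and 545 CPM (ratio 1.11), and Unc5b, at 12.8 and 14.2 CPM (ratio 0.902), were at close to the same level. In these whole libraries, more RNA per nucleus and more nuclei of a type cannot be told apart.

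Of the classes with the same markers at both ages, only the endothelial and the microglia or macrophage classes reached 20 nuclei in both libraries. In endothelial-like nuclei 6 of the 7 genes had enough UMIs for the ratio and all 6 were at least 2-fold lower in the adult, where 28.6% of 11988 genes were, with 15.9% higher and 44.5% in either direction. The limit of 20 UMIs was set on both libraries together, and each of the 6 had only 1 to 18 UMIs in the adult class. They passed through their embryonic UMIs, so this count favours genes lower in the adult. For Ntn1 this rested on 4 adult UMIs, and its ratio went from 0.414 to 2.14 with clusters as classes. Dcc was 48.3 CPM in the adult against 1514 CPM in the embryo, a ratio of 0.0319 (0.0159 to 0.0571), and Unc5d 4.39 against 386 CPM, a ratio of 0.0114 (0.000288 to 0.0635). Unc5b, led in the embryo by this class and mural-like nuclei with overlapping intervals, was 43.9 against 105 CPM (ratio 0.417, 0.197 to 0.781). In microglia or macrophage-like nuclei Dcc was 332 against 1946 CPM (ratio 0.171, 0.130 to 0.221), and 3 of the 4 genes with enough UMIs were lower, where 21.5% of 7230 genes were, with 13.2% higher and 34.7% in either direction. Of these 4 genes, Neo1 and Unc5d had 12 and 14 adult UMIs and also passed only with their embryonic UMIs. The adult level of Dcc in this class fell to 84.9 CPM with clusters as classes. The depth, doublet and neuronal marker values above apply to the embryonic side of each of these ratios. On the adult side a Dcc UMI was found in 7 of 44 microglia or macrophage-like nuclei, which had a median of 17538 UMIs against 2034 in the others and neuronal markers at 5156 against 2617 CPM. In endothelial-like nuclei it was found in 2 of 42, with medians of 12074 and 3221 UMIs. The part of these values in the ratios was not tested.

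Thalamic-like nuclei were named from different lists at the 2 ages, and their values are given side by side only. Dcc was 134 CPM in the adult and 3362 CPM in the embryo (89.5 and 1585 CPM with the wider margin), Unc5c 1861 and 974 CPM, and Unc5d 71.5 and 597 CPM (318 CPM in the embryo with the wider margin). Of all UMIs of Dcc and the 4 Unc5 genes, counted without regard to gene length, Dcc made up 6.46% in adult and 68.0% in embryonic thalamic-like nuclei. The same share was 60.1% in adult CA3-like, 80.3% in CA1-like, 35.1% in dentate granule-like and 21.3% in inhibitory-like nuclei.

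Other genes of netrin signalling were described from 3 lists with 36 genes, of which 35 had enough UMIs. Between the whole libraries 9 of the 35 were at least 2-fold lower in the adult, 1 was higher and 25 were neither, beside 24.1% lower and 17.2% higher over all genes, and the median ratio was 0.746 against 0.896 over all genes. Among other ligands and binding partners 6 of 10 were lower and none was higher. They included Draxin, a secreted repulsive cue that binds Dcc, with 0.847 against 67.6 CPM (ratio 0.0125, 0.00667 to 0.0215), and Gpc3, a glypican that binds Unc5 receptors, with 11.5 against 124 CPM (ratio 0.0932). The others were Cbln4, the Neo1 ligands Rgma and Rgmb, and the Unc5 ligand Flrt2, with ratios from 0.114 to 0.412. Of 4 other netrins with enough UMIs only Ntn4, a netrin of basement membranes, was lower (ratio 0.142), and Ntng2 had a ratio of 1.67. Of 21 intracellular genes 2 were lower, 1 was higher and 18 were neither. The one that was higher was Trim9, an E3 ligase that binds Dcc, with 306 against 85.6 CPM (ratio 3.58, 3.44 to 3.72), while its relative Trim67 had 3.45 against 35.2 CPM (ratio 0.0981, 0.0732 to 0.129). The other lower gene was Maged1, with 59.6 against 134 CPM (ratio 0.444). Dscaml1, a relative of the netrin receptor Dscam, had a ratio of 1.64.

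**Figure D5:**
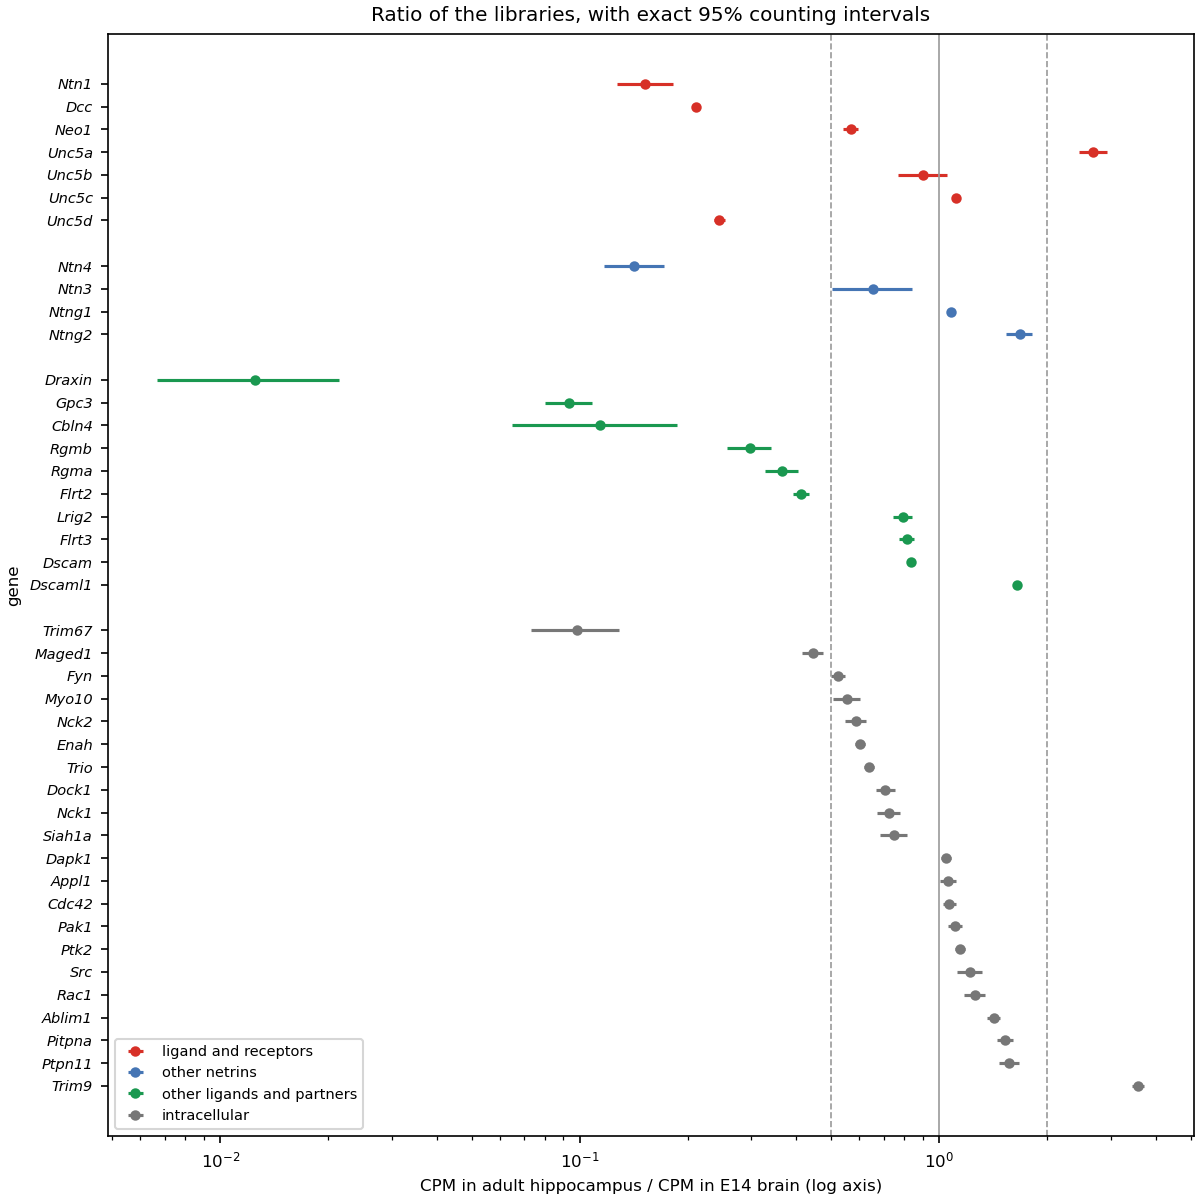
Ratio of CPM in the adult hippocampus to CPM in the E14 brain (horizontal log axis) for the 7 genes and 35 other genes of netrin signalling; bars are exact 95% counting intervals, the solid line is a ratio of 1 and the dashed lines mark 2-fold. Draxin had the lowest ratio, 0.0125, and Trim9 the highest, 3.58.

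The pattern of each gene over 18 classes with at least 50 nuclei, from both libraries, was set against 13129 other genes by Pearson's r of log2(CPM + 1). The classes share 2 libraries and so differ together in depth and age, and the values are descriptions. Unc5a was most like Gria1, an AMPA receptor subunit (r = 0.885), Plppr2 and Nat14. Unc5d was most like Prkar2b, a regulatory subunit of protein kinase A (r = 0.945), Epb41 and Zswim4. Ntn1 was most like Ska2 (r = 0.972), Cdca7 and Gm11508, and Dcc most like Gm50368 (r = 0.940), Senp7 and Zfp821. Neo1 had Mvk (r = 0.838), Gm47271 and 2310022B05Rik, Unc5b had 4931406P16Rik (r = 0.816), Gm12758 and Slc12a2, and Unc5c had Kndc1 (r = 0.790), Slc8a3 and Gm3693. Among the 7 themselves the largest r was 0.705, between Ntn1 and Dcc, and Dcc and Unc5d had 0.681, whereas Dcc and Unc5c had -0.419.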

How the data were processed

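Mouse reads, introns included, were mapped by the authors to mm10, and raw UMI counts for each gene in each nucleus barcode were deposited. Per the file headers they were written by Cell Ranger 6.1.2 (hippocampus) and Cell Ranger 7.0.1 (embryo). CellBender is named by the methods for embryonic tissue, but its use cannot be seen in the file, so background RNA was treated as present. Nuclei with at least 500 UMIs and at most 5% mitochondrial UMIs were kept, 1609 of 1661 and 9036 of 9037. Each class had a list of 8 markers. Counts were scaled to 10000 per nucleus, logged and standardised per marker (capped at 5), and a nucleus took the list with the highest mean score if this was at least 0.75, led the next list by 0.5 and rested on 3 detected markers. This scoring rule was set after the data had been seen. In all, 176 hippocampal and 950 E14 nuclei lay within 0.1 of the limits. Doublets were scored with Scrublet (expected 21 and 653 nuclei) and kept in the values reported. The 7 genes and the gene lists were chosen with earlier results of these data known. The text names the 7 genes, the 3 pathway genes with the largest ratio in each direction among those with at least 100 UMIs, the other pathway genes that passed 2-fold, and the 3 genes most like each of the 7. Cbln4, Rgma, Rgmb, Flrt2, Ntn4 and Maged1 were named after their values were seen. Ratios were called at 2-fold among genes with at least 20 UMIs in both libraries together. Gene spans are from GENCODE annotation of GRCm38. Intervals are exact Poisson and Clopper-Pearson at 95%. The functions were tested on simulated counts. Python 3.11.15, scanpy 1.11.5, scipy 1.17.1, R 4.3.3 and Seurat 5.3.0 were used. Alternatives were nuclei with at least 1000 UMIs, without marked doublets or with a Malat1 share of at least 1.5%, a doubled margin, Seurat clusters as classes, other thinning depths and other ratio rules.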

Additional observations from a re-analysis of the deposited data

How the results depend on the processing

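No paired analysis was possible because each tissue had 1 library. Each value without a test was compared with the counting interval of its main value, and the cause of a move was not tested unless named. With at least 1000 UMIs per nucleus 517 of 519 values stayed within that interval, and Dcc in all E14 nuclei became 3393 CPM. With a Malat1 share of at least 1.5%, 197 of 210 values stayed, Dcc became 732 CPM in the hippocampus and 3438 CPM in E14, Unc5c 622 and 555 CPM, and Unc5d in E14 845 CPM. Without marked doublets 518 of 551 stayed, and Dcc became 111 CPM in adult thalamic-like and 6434 CPM in Cajal-Retzius-like nuclei, and Unc5d 2070 CPM in E14 cortical excitatory-like nuclei. With the margin doubled 195 of 282 stayed. Dcc became 89.5 CPM in adult thalamic-like, 1252 CPM in E14 endothelial-like and 8111 CPM in Cajal-Retzius-like nuclei, Unc5d 1986 CPM in E14 cortical excitatory-like and Ntn1 254 CPM in radial glia-like nuclei. With Seurat clusters as classes 147 of 218 stayed. No E14 cluster was named as intermediate progenitor-like, Lhx6 interneuron-like, striatal-like, mural-like, erythroid-like or GABAergic without Dlx genes. None was named as Lmx1b and Lmx1a or Rspo2 and Lmx1a nuclei either, so none of these classes was compared under this alternative. Dcc became 2756 CPM in CA3-like, 1823 CPM in E14 endothelial-like and 5896 CPM in Cajal-Retzius-like nuclei, Unc5d 2096 CPM in E14 cortical excitatory-like and Ntn1 166 CPM in radial glia-like nuclei. In clusters the ratio of Ntn1 between adult and E14 endothelial-like nuclei reversed, from 0.414 on 4 adult UMIs to 2.14. Thinning to 1000 UMIs lowered the share of E14 cortical excitatory-like nuclei with both Dcc and Unc5d from 56.8% to 43.9%, since fewer UMIs are kept. Of the pathway genes, a ratio of 1.5 called 15 lower and 5 higher, and at least 1 UMI in each library, or the mean of CPM over nuclei, called 2 higher. With and without Dcc, the shares in E14 non-neuronal nuclei without marked doublets or with a doubled margin were alternatives chosen after seeing the data. With 1 library per tissue no spread between animals is known, 28.8% of E14 nuclei had a class, and classes under 50 nuclei rest on few nuclei.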
